A study of Homo sapiens with 19 samples.

Results

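The transcription factor NRF2 (gene NFE2L2), its inhibitor KEAP1 and 7 antioxidant target genes of NRF2 (NQO1, HMOX1, GCLM, GCLC, TXNRD1, SRXN1 and OSGIN1) were followed during the first 72 h in which human embryonic stem cells were directed toward brown adipocytes (BAs). The genes were taken by symbol as known parts of the pathway, with no threshold on their values, and are 9 of the 20503 genes that the RefSeq accessions of the array named. Each of the 9 has 1 probe. That of NFE2L2 was well above background on only 3 arrays, so 8 of the 9 genes were among the 16694 that could be tested.

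The cells were KhES-3, an established human embryonic stem cell line, and 1 culture was harvested at each of 19 times after induction. Every sample, the first included, had already been moved to low-attachment dishes in serum-free BA medium with bovine serum albumin, lipids, monothioglycerol, an insulin-transferrin-selenium supplement, ascorbic acid-2-phosphate and the cytokines IGF-II, BMP4, VEGFA, KITLG, FLT3LG and IL-6. No uninduced sample was analysed here, so a change between stem cells in their maintenance medium and the 3 h sample cannot be seen. All samples come from 1 cell line without replicates, so the p-values below measure the scatter of the 19 arrays around a trend and not the spread between cultures. The labels state that the stem cells were kept on irradiated mouse embryonic fibroblasts, whereas the methods of the study describe feeder-free culture. The arrays lay on 3 slides, and in every list of values below the order is that of time. Slide 1 held 6 arrays, those of 3, 4, 6, 8, 10 and 12 h. Slide 2 held 8, taken at 14, 16 and 20 h and then at 24, 28, 32, 36 and 42 h. Slide 3 held the last 5 (48, 54, 60, 66 and 72 h) and was scanned on a later day. Between 49.6% (14 h) and 64.7% of the probes of an array were well above background (median 61.0%), and the 16 h array at 52.0% and the 72 h array at 53.8% were the next lowest. Signals are background-subtracted intensities brought to a common 75th percentile of 690 per array, and a change is given on the log2 scale.

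The identity of the cells was checked with marker genes. All 7 pluripotency markers on the array were well above background on every array, and their summed signal ran from 805292 at 8 h to 533448 at 72 h, with POU5F1 the brightest. Of 6 brown adipocyte lineage markers, 1 to 4 were well above background on an array, with PPARGC1A the brightest and a summed signal of 345 at 3 h and 212 at 72 h, and MYF5, a muscle and brown fat precursor gene, reaching that level on 1 array of 19. Of 8 fibroblast markers, 3 to 6 were well above background, with a summed signal between 26096 (48 h) and 45732 (72 h) and THY1, which stem cells also express, the brightest. The collagen genes COL1A1 (8347 early and 7308 late) and COL1A2 (4834 and 5976) were well above background on all 19 arrays and PDGFRB on 17, whereas COL3A1 and LUM were on 1 array each. The blood and endothelial markers, of which 3 to 4 of 6 were well above background, had a summed signal of 1303 at 3 h and 527 at 72 h, and TEK was the brightest. CDH5, PTPRC (71.1 early and 145 late) and TEK were well above background on all 19 arrays, PECAM1 on 1, and CD34 and GATA1 on none. The samples thus had the markers of stem cells at all 19 times, and the part of a change in cell composition in the results below was not tested. In bulk RNA, fewer cells that express a gene and less RNA per cell cannot be told apart.

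NRF2 is the main activator of the cellular defence against oxidants and electrophiles. Under resting conditions KEAP1 holds it in a CUL3 and RBX1 ubiquitin ligase complex that marks it for destruction, so that NRF2 activity is set mainly by the stability of the protein and not by its mRNA. When cysteines of KEAP1 are modified, NRF2 escapes, pairs with a small MAF protein and binds the antioxidant response element (ARE) near its targets, where BACH1 can compete with it. The targets start glutathione synthesis (GCLC, GCLM), regenerate thioredoxin (TXNRD1) and peroxiredoxins (SRXN1), reduce quinones (NQO1) and degrade heme (HMOX1).

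The core of the ARE, TGACNNNGC in which N is any base, was searched on both strands from 250 bases before to 50 bases after the gene start, in promoter sequences taken from RefSeq (GRCh38.p14). The table gave a promoter for 8 of the 9 genes, all but HMOX1. Of these, 2 held the motif, GCLM with 1 match and TXNRD1 with 2, against 13.3% of 35116 promoters of the same length. The 30-base windows around these matches are shown because GCLM and TXNRD1 are the members that held the motif. They are written 5′ to 3′ along the gene's strand, with the motif, or its reverse complement, in capitals. None overlaps the AP-1 motif TGANTCA.
GCLM (chr1:93909445-93909474, minus strand, motif reversed, 34 bases before the start): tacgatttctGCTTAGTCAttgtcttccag
TXNRD1 (chr12:104215670-104215699, plus strand, 99 bases before the start): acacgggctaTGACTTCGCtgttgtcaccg
TXNRD1 (chr12:104215761-104215790, plus strand, motif reversed, 8 bases before the start): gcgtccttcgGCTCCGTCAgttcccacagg
A match is a description of the letters and not a site shown to be bound. The motif is short, and its absence from the other windows says only that these letters do not occur there.

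Over 3 to 72 h, 5 of the 8 measured genes fell and 1 rose. The inhibitor KEAP1 and the targets NQO1, GCLC, TXNRD1 and SRXN1 fell, GCLM rose, and HMOX1 and OSGIN1 did not pass the test of a straight line (limma, adjusted p under 0.05). Of all 16694 genes, 32.7% fell and 21.3% rose in the same fit. Windows of 3 arrays each were then set against each other, an early one at 3, 4 and 6 h and a late one at 60, 66 and 72 h, and 3 of the 8 (NQO1, GCLC and SRXN1) were lower by 2-fold or more, against 7.01% of all genes, and none was higher by 2-fold or more, against 6.36%. The median change of all genes between these windows was -0.11 with the 75th percentile, -0.45 when each array was scaled to its median and -0.69 when it was scaled to the spike-in RNA, so the 75th percentile is the reference for each direction given here. In a fit with the slide as a block, 2 of the 8 (NQO1 and GCLC) fell, against 5.33% of all genes, and none of the 8 rose at an adjusted p under 0.05, against 4.22%. Within slide 1 alone none of the 8 fell at that threshold (3.28% of all genes did), within slide 2 NQO1 fell (2.89%), and within slide 3 none did (1.01%). KEAP1 had the lowest adjusted p of the 8 within slide 3 (0.072).

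The probe of NFE2L2 (NM_006164) gave no usable time course. Its signal reached 225 on the 14 h array, 947 on the 16 h array and 66.9 on the 72 h array, the 3 arrays on which it was well above background, and between 4.88 (4 h) and 26.5 (48 h) on the other 16. The 3 arrays on which NFE2L2 was detected are the 3 with the smallest share of probes well above background. It is a single spot, and the median of the 79 spots within 4 rows and columns of it lay 0.11 above its own median over the arrays at 14 h, 0.04 above it at 16 h and 0.23 above it at 72 h, the highest of the 19 arrays. The level of NFE2L2 mRNA at the other times, and any relation between NFE2L2 and its targets, could therefore not be measured with this probe.

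KEAP1 (NM_203500), the adaptor that delivers NRF2 to the ubiquitin ligase, fell over the course. Its probe was read as the mean of 10 spots. Its signal was 5015, 4647, 5119, 5062, 5245 and 4828 on slide 1, then 4506, 4955, 4643, 4020, 3798, 4068, 4049 and 4793 on slide 2, and 4210, 3928, 3476, 3101 and 2616 on slide 3. It declined at every step of slide 3, to its lowest signal at 72 h, while the highest values of slide 2 reached those of slide 1. The slope was -0.0104 per hour (standard error 0.0016, n = 19, limma adjusted p = 2.5e-05), and the late minus early change was -0.69, of which -0.31 came by a middle window at 24, 28 and 32 h and -0.38 after it. Over 3 to 54 h alone KEAP1 also fell (-0.0067, adjusted p = 0.0144). The slope was nearly the same once the slide was a block but did not pass the test (-0.0115, limma adjusted p = 0.119), and without the 42 h array, a fit added after seeing the data, it was -0.0184 and passed (adjusted p = 0.0123).

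GCLC and GCLM encode the catalytic and the modifier subunit of glutamate-cysteine ligase, which makes the first and rate-limiting step of glutathione synthesis. GCLC (NM_001498) was 4094, 4370, 4581, 4377, 3828 and 3972 on slide 1, 3184, 3401, 3200, 2934, 2675, 2587, 2891 and 2739 on slide 2, and 2431, 2494, 1962, 2019 and 1833 on slide 3. The ranges of the 3 slides did not overlap, and the slopes within slide 2 (-0.0110, adjusted p = 0.158) and slide 3 (-0.0187, adjusted p = 0.17) were below 0 but did not pass the test. GCLC had the smallest scatter of the 8 genes around its line (0.12 on the log2 scale), a slope of -0.0175 (standard error 0.0015, n = 19, limma adjusted p = 2.7e-08), and a late minus early change of -1.17. It also fell in the fit with the slide block (-0.0137, limma adjusted p = 0.0182). GCLC fell under each scaling that was run.

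GCLM (NM_002061) was 20444, 19068, 19817, 18904, 22583 and 22391 on slide 1, and 36803, 39919, 30498, 33540, 30520, 30902, 29194 and 27766 on slide 2. On slide 3 it was 31347, 34735, 33740, 29864 and 34651. All 13 arrays of slides 2 and 3 were above all 6 of slide 1, and the change came in 1 step of 0.72 between 12 and 14 h, which is also the change from slide 1 to slide 2. Across that step 7.89% of all genes were higher by 1.5-fold or more and 7% were lower. The slope of GCLM over all hours was 0.0093 (standard error 0.0029, n = 19, limma adjusted p = 0.0127), against -0.0079 in the fit with the slide block (limma adjusted p = 0.245). The rise rests on the difference between slides, so time and slide cannot be told apart for GCLM. It also rests on the scaling, with a late minus early change of 0.73 under the 75th percentile and 0.14 under the spike-in RNA.

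HMOX1 (NM_002133), heme oxygenase 1, which opens the heme ring and is among the most inducible NRF2 targets, had the widest swing of the 7 members that were detected on all 19 arrays. Its probe was the mean of 10 spots. Its signal was 14401, 17312, 24484, 19417, 17384 and 14728 on slide 1. It was 9974, 8739, 6168, 5053, 4470, 5696, 5705 and 7601 on slide 2, and 8053, 7066, 7879, 11750 and 12512 on slide 3. HMOX1 was highest at 6 h, 5.48-fold above its lowest signal at 28 h, and both the decline to 28 h and the later increase ran within slides as well as across them. It therefore had no single direction, and its straight slope of -0.0128 did not pass the test (standard error 0.0068, n = 19, limma adjusted p = 0.124). Over 3 to 54 h alone, a range that holds part of the increase from 28 h, it fell (-0.0334, limma adjusted p = 0.0049). The straight slope also passed without the 72 h array (-0.0188, adjusted p = 0.0423), on log2 hours (adjusted p = 0.0075) and when scaled to the spike-in RNA (-0.0202, adjusted p = 0.0053). A cubic curve did (F test of limma, adjusted p = 2.6e-05), as it did for all 8 genes, against 79.5% of all genes, and with the slide as a block HMOX1 did not pass (adjusted p = 0.127) while KEAP1, NQO1 and GCLC did, 3 of 8 against 36% of all genes. The mean of the early window was 18275, that of the middle window 5048 and that of the late window 10502. The middle minus early change of HMOX1 was -1.86 and the late minus middle change 1.06. Of all genes, 3.92% were lower by 2-fold or more in the middle window, 3.05% were higher by 2-fold or more from the middle to the late window, and 0.737% did both. The middle window holds the lowest array of HMOX1 and the share for both changes was taken after its course was seen, so these shares are a description and no measure of how rare the course is. Scaled to the spike-in RNA, the late increase of HMOX1 was 0.44 on the log2 scale.

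SRXN1 (NM_080725), sulfiredoxin, which restores overoxidised peroxiredoxins, had an early course like that of HMOX1. It was 3050, 3300, 4572, 4265, 3551 and 2987 on slide 1, 2253, 2401, 1965, 1662, 1553, 1542, 1544 and 2443 on slide 2, and 1757, 1603, 1150, 1339 and 1358 on slide 3. Both genes were highest at 6 h, as were GCLC and TXNRD1. Both stepped up from 36 to 42 h, SRXN1 by 0.66 and HMOX1 by 0.41. TXNRD1 (0.37), KEAP1 (0.24) and OSGIN1 (0.13) stepped up there too, while NQO1, GCLM and GCLC stepped down. Unlike HMOX1, SRXN1 had no late increase and ended at a late mean of 1278 against an early mean of 3584. It fell with a slope of -0.0222 (standard error 0.0036, n = 19, limma adjusted p = 4.2e-05), and the slope was -0.0109 with the slide as a block (limma adjusted p = 0.398), or -0.0225 when 42 h was also left out (adjusted p = 0.0514).

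TXNRD1 (NM_003330), the cytosolic thioredoxin reductase, ranged from 656 to 808 on slide 1 (median 746), from 456 to 641 on slide 2 (median 520) and from 387 to 482 on slide 3 (median 475). All values of slide 1 were above those of slides 2 and 3, while slides 2 and 3 overlapped. It fell with a slope of -0.0117 (standard error 0.0019, n = 19, limma adjusted p = 4.6e-05), and its late minus early change was -0.72. The slide block left a slope of -0.0081 (limma adjusted p = 0.267), or -0.0137 when 42 h was also left out (adjusted p = 0.0615).

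NQO1 (NM_000903), a quinone reductase that is the classical marker of NRF2 activity, was measured close to background. Its signal was 122, 128, 152, 157, 161 and 117 on slide 1, 225, 153, 120, 109, 117, 55.4, 82.1 and 7.14 on slide 2, and 69.9, 75.4, 58.9, 114 and 22 on slide 3. The values at 42 h (7.14) and 72 h (22) were not well above background, and the 66 h value (114) was near that at 12 h (117). NQO1 fell with a slope of -0.0310 (standard error 0.0095, n = 19, limma adjusted p = 0.0104) and with the slide as a block (-0.0955, limma adjusted p = 0.0165). The call with the block was lost when 42 h was left out (-0.0524, adjusted p = 0.0528), and the call on hours when 14, 16 and 72 h were (-0.0239, adjusted p = 0.0864), both settings added after seeing the data. The late minus early change of -1.33 has 1 undetected array of 3 in the late window, and it ran from -1.89 to -0.70 when single arrays of the windows were left out. With normexp the slope was -0.0159 (limma adjusted p = 0.0030) and the change -0.72. In the deposited table they were -0.0184 (adjusted p = 0.0039) and -0.70, so the fall of 2-fold or more was lost in both.

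OSGIN1 (NM_182981), an oxidative stress-induced growth inhibitor, ranged from 43.3 to 67.2 on slide 1 (median 55.5), from 90.6 to 127 on slide 2 (median 114) and from 75.2 to 119 on slide 3 (median 81.9). Although well above background on all 19 arrays, its median signal of 90.6 was below that of NQO1 (117), so its changes too were measured close to background. All arrays of slides 2 and 3 were above all of slide 1, with a step of 0.88 between 12 and 14 h, where GCLM also stepped up and NQO1 did so by 0.94. The slope of 0.0106 just missed the threshold (standard error 0.0045, n = 19, limma adjusted p = 0.0527), and the slide block left 0.0063 (adjusted p = 0.586). On log2 hours OSGIN1 rose (limma adjusted p = 0.0038), as it did on hours without any one of the 14, 16, 20, 54, 60 or 66 h arrays (adjusted p between 0.0236 and 0.0446). The slope also shrank under other scalings, to 0.0059 with the array median (adjusted p = 0.202), to 0.0032 with spike-in RNA (adjusted p = 0.708) and to 0.0026 with normexp (adjusted p = 0.323), and the late minus early change went from 0.70 to 0.12 with the spike-in RNA. As for GCLM, time and slide cannot be told apart.

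The 8 measured genes did not all share a course. Of the 18 steps from 1 array to the next, KEAP1 and TXNRD1 moved the same way in 15. SRXN1 moved the same way as HMOX1 in 14 and as GCLC in 14, and every other pair did so in 7 to 12. No share over pairs of all genes stands beside these counts, which are a description. Over the 19 arrays, which share slides and scaling, HMOX1 was most like SRXN1 among the other members (Pearson's r 0.76), with 9.71% of 13962 genes more like HMOX1 than SRXN1 was. GCLM was most like OSGIN1 (r 0.77, 3.96% of genes more alike), and its r with HMOX1 was -0.72 and with GCLC -0.74.

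Among all genes well above background on every array, the 3 whose course was most like that of HMOX1 were the death-associated kinase gene DAPK3 (r 0.97), the adhesion receptor gene ADGRB1 (r 0.97) and the small nucleolar RNA SNORA10 (r 0.96). Their correlation with HMOX1 also held within each slide, between 0.67 and 1.00. For GCLM they were the antisense RNA PCED1B-AS1 (r 0.98), the uncharacterised LOC729609 (r 0.97) and the chemokine receptor gene CCR6 (r 0.97), which shared its step between slides 1 and 2 and correlated with it within each slide as well, between 0.68 and 0.98. Whether the GCLM probe reads GCLM alone was not tested. For NQO1 they were POTEE (r 0.81), which shares sequence with the actin genes and is uncertain for that reason, the histamine methyltransferase gene HNMT (r 0.80) and VGLL4 (r 0.77), and these correlations take in the 2 arrays on which NQO1 was not well above background. Their r with NQO1 was -0.71, -0.04 and -0.69 within slide 1, 0.81, 0.83 and 0.84 within slide 2, and 0.72, 0.85 and 0.40 within slide 3. These values describe the 19 arrays, and nothing about shared control was tested.

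The wider pathway was read from 7 lists with 114 different genes, of which 111 were tested. Of these, 49 fell (44.1%, against 32.7% of all genes) and 16 rose (14.4%, against 21.3%), and their median late minus early change was -0.31, against -0.11 for all genes. In the fit with the slide block 3 fell and 3 rose, against 5.33% and 4.22% of all genes. Scaled to the array median 66 fell and 7 rose, against 46.1% and 9.78% of all genes, and scaled to the spike-in RNA 66 fell and 5 rose, against 44.5% and 3.59%. With normexp 35 fell and 23 rose, against 27.3% and 21% of all genes. Of the list genes named below with a call on hours, TXNRD3, IDH1, MGST1, MSRA and PSAT1 also passed in the fit with the slide block, and every other one lost its call there. Some of their slopes stayed as large, and with the block that of TXNIP was 0.0389 (0.0357 without it), that of GLRX2 -0.0171 (-0.0146) and that of FECH -0.0238 (-0.0188).

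Of the 21 regulators of NRF2, 11 fell (52.4%, against 32.7% of all genes) and none rose at an adjusted p under 0.05 (21.3% of all genes did). RBX1, the ring subunit of the KEAP1 ligase, fell by 0.53 (limma adjusted p = 3.3e-06) and CUL3, its scaffold, by 0.31 (adjusted p = 0.0017). The coactivator and acetyltransferase EP300 fell by 0.86 (adjusted p = 0.00015), from a mean of 1758 to 966, and the repressor BACH2 fell by 0.76 (adjusted p = 0.0454). With the slide block none of the 21 passed the test, where 5.33% of all genes fell and 4.22% rose. The slope of RBX1 went from -0.0103 to -0.0092 with the block and that of EP300 from -0.0118 to -0.0150, while that of CUL3 went from -0.0051 to -0.0013 and that of BACH2 from -0.0145 to 0.0010 (adjusted p = 0.974). BACH1, which represses HMOX1, had a mean of 2727 early, 1981 in the middle window and 2231 late (adjusted p = 0.503). SQSTM1, the autophagy receptor p62 that can sequester KEAP1, was at 17622, 9101 and 21440 in the same windows (adjusted p = 0.56), with a low in the middle window as HMOX1 had. Of the 3 small MAF partners, MAFG fell by 0.46 and MAFK by 0.40. MAFF was at 669, 393 and 618, a late minus early change of -0.11, and did not pass (limma adjusted p = 0.732). Whether the 3 differed from each other was not tested.

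Of 14 tested genes of glutathione synthesis and reduction, 8 fell (57.1%) and 2 rose (14.3%), beside the same 32.7% and 21.3%. GLRX2, a mitochondrial glutaredoxin, fell by 0.99 and CHAC1, which degrades glutathione, by 0.94, while OPLAH, which returns oxoproline to glutamate, rose by 0.30 (limma adjusted p = 0.0234). The cystine transporter subunit SLC7A11 fell by 0.61, and glutathione reductase, GSR, was at 1999 early and 2100 late (adjusted p = 0.439).

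Of 12 thioredoxin and peroxiredoxin genes, 4 fell (33.3%) and 2 rose (16.7%), which is near the 32.7% and 21.3% of all genes. TXNIP, which binds and inhibits thioredoxin, rose from a mean of 1702 to 6707, by 1.98 (limma adjusted p = 2.7e-06, 0.0748 with the slide as a block), and the reductase TXNRD3 rose by 1.08 (with the block, adjusted p = 0.0478), opposite to TXNRD1. The mitochondrial peroxiredoxin PRDX3 fell by 0.71 and SESN2, a stress-induced sestrin, by 0.93. PRDX1, a classical NRF2 target, was at 179197 early and 183901 late (adjusted p = 0.676).

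Of 11 genes of NADPH supply, 5 fell (45.5%, against 32.7%) and none rose at an adjusted p under 0.05 (21.3% of all genes did). IDH1, the cytosolic isocitrate dehydrogenase, fell by 1.06, also with the slide as a block (adjusted p = 0.0202), and the folate enzyme MTHFD1 fell by 0.71.

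Of 13 heme and iron genes, 5 fell (38.5%, against 32.7%) and 1 rose (7.69%, against 21.3%). FECH, which inserts iron into heme, fell by 1.20 (adjusted p = 0.00095), from an early mean of 309 to a late mean of 134, and the porphyrin transporter ABCB6 fell by 0.46. FTL, the ferritin light chain, rose by 0.53 (adjusted p = 0.0014), and the heavy chain FTH1 was at 150771 early and 168306 late (adjusted p = 0.61). BLVRB passed the test only with the slide as a block (adjusted p = 0.0475, against 0.893 without it).

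Of the 28 detoxification and export genes, 10 fell (35.7%, against 32.7%) and 9 rose (32.1%, against 21.3%), with a median change of 0.05. With the slide block 1 of them fell and none rose at an adjusted p under 0.05, against 5.33% and 4.22% of all genes. The aldo-keto reductase AKR1B10 rose from a mean of 26.1 to 139 and then 1235, by 5.57 (limma adjusted p = 7.9e-08). With the slide as a block its slope was 0.0680, against 0.0775 without it, and did not pass (adjusted p = 0.0517). AKR1B10 was well above background on 18 of the 19 arrays, and the undetected one is the 3 h array of the early window, so the size of the rise is uncertain. AKR1C3 rose by 0.99 (adjusted p = 0.0304), whereas the carbonyl reductase CBR3 fell by 1.18 and UGDH, which makes UDP-glucuronate, fell from a mean of 3545 to 1654. The slide block ended these calls. With it the slope of AKR1C3 went from 0.0092 to 0.0079 (limma adjusted p = 0.667). That of CBR3 went from -0.0163 to -0.0022 (adjusted p = 0.934) and that of UGDH from -0.0189 to -0.0030 (adjusted p = 0.689). Probes of the aldo-keto reductases can share targets with close paralogs, so both rises are uncertain as to the member. MGST1, a microsomal glutathione transferase, fell also with the slide as a block (adjusted p = 0.019).

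Of 12 superoxide and peroxide enzymes and their helpers, 6 fell (50%, against 32.7%) and 2 rose (16.7%, against 21.3%). The methionine sulfoxide reductases MSRB1 and MSRA fell by 0.88 and 0.69, MSRA also with the slide as a block (adjusted p = 0.0286), while CCS, the copper chaperone of SOD1, rose by 0.37 and NNT, the mitochondrial transhydrogenase, by 0.61. SOD2 fell by 0.63, and SOD1 was at 56331 early and 48951 late (adjusted p = 0.0745).

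Some NRF2 targets also answer to ATF4, the factor of the integrated stress response, so 12 genes of that response were read beside them. Of these, 6 fell (50%, against 32.7% of all genes) and 2 rose (16.7%, against 21.3%). ATF4 itself fell by 0.57 (limma adjusted p = 0.0016), and with the slide block its adjusted p was 0.969. PSAT1, of serine synthesis, fell by 1.06, also with the slide as a block (adjusted p = 0.0111), and CHAC1 and SESN2 fell as given above. DDIT3 (CHOP) rose from 629 to 1317, by 1.07, and VLDLR by 0.66, and neither passed with the slide block (adjusted p = 0.387 and 0.489), where their slopes were 0.0190 and 0.0142, against 0.0164 and 0.0124 without it. In that fit PSAT1 alone of the 12 passed, where 5.33% of all genes fell and 4.22% rose. The part of ATF4 in the target levels was not tested.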

How the data were processed

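The authors deposited 1 Agilent Feature Extraction 10.10.1.1 file per array (version per the submitters' processing notes), in which the processed signal of a spot is an intensity after background subtraction and spatial detrending, with flags of 0 or 1 for well above background and outliers. The deposited table holds the same intensity times 1 factor per array (0.905 to 1.38), blank where a spot was not well above background. Factor times 75th percentile lay between 717 and 726 on every array, so the table is scaled to that percentile. Spots flagged as outliers (232 to 814 on an array) were dropped, and none was saturated.

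Spots of a probe were averaged, log2 signals were centred on each array's 75th percentile over distinct probes, and probes were named by RefSeq accession (28174 of 50683 probes). A gene was read from its probe with the highest mean log2 signal. limma 3.58.1 (R 4.3.3) gave the slopes on hours and the cubic curves, with Benjamini-Hochberg adjustment over 32113 probes that were well above background on 5 or more arrays. Named list genes are the 2 with the largest called rise and the 2 with the largest called fall among those well above background on at least 10 arrays, with CUL3, RBX1, SQSTM1 and BACH1, apart from a gene that is not reported here. Others (MAFF, MAFG, MAFK, SLC7A11, GSR, PRDX1, FTH1, BLVRB, MGST1, ATF4, SOD1, SOD2 and PPARG) were named after their values were seen. The cell type markers named above did not all follow this rule, and DNMT3B and L1TD1, which met it, were not described. The members and lists were chosen with earlier results of these data known. Tested on simulated data for this slope, the fit recovered 153 of 200 probes with a slope of 0.02 among 31999, with 7 false calls. The simulated scatter was independent, with no differences between slides and no link between neighbouring times. These counts therefore do not measure the false calls in the real arrays. Of the members called on hours, only NQO1 and SRXN1 had a steeper slope than the simulated one. Precision is limited by how many arrays there are. Python 3.11.15, numpy 2.4.6, pandas 2.3.3 and matplotlib 3.10.9 were used for tables and figures. Alternatives were other scalings (array median, spike-in RNA), normexp (offset 50) with quantile normalization, the deposited table, other background filters, log2 hours, the slide as a block, single slides and arrays left out.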

Additional observations from a re-analysis of the deposited data

How the results depend on the processing

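No paired analysis was possible because the arrays carry no replicate numbers, with 1 array for a time. The planned relation between NFE2L2 and its targets was not run, because the NFE2L2 probe was not well above background on 16 of 19 arrays. The number of members that rose was 1 and became 0 with the array median, the spike-in RNA, the slide as a block (also without 42 h) and each slide alone, and 2 with log2 hours, 3 to 54 h alone, a filter on all 19 arrays and the mean of all probes of a gene, and with 2 settings chosen after seeing the data, the 75th percentile over all spots and the arrays without 14, 16 and 72 h. The number that fell was 5 and became 2 with the slide as a block (NQO1 and GCLC, or KEAP1 and GCLC without 42 h, a setting chosen after seeing the data), 0 on slide 1, 1 on slide 2 and 0 on slide 3. It was 6 with the spike-in RNA, log2 hours and 3 to 54 h alone, and 4 with a filter on all 19 arrays, which NQO1 does not pass. With the spike-in RNA 44.5% of all genes fell. The fits by slide use fewer arrays, and the block removes differences between slides. The members with a cubic pattern went from 8 to 3 with the block. Leaving out single arrays gave 1 to 2 rising, 5 to 6 falling and 7 to 8 with a cubic pattern. HMOX1 was the added falling gene without the 72 h array (slope -0.0188, adjusted p = 0.0423). The cause of the other shifts was not tested.

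Slopes that changed sign were KEAP1 on slide 1 (0.0040), NQO1 on slide 1 (0.0092), HMOX1 with the block (0.00057) and on slide 3 (0.0334), and GCLM with the block (-0.0079, or -0.0059 without 42 h) and on slide 2 (-0.0153). Members lower by 2-fold or more numbered 3, against 6 with the array median, 6 with the spike-in RNA, 1 with normexp and 2 to 3 with single arrays left out, and 1 was higher by 2-fold or more from 3 h to 72 h. The median change of all genes moved too, from -0.11 to -0.45 with the array median, -0.69 with the spike-in RNA and -0.06 with normexp. No share of all genes is given for these settings, so the shift in count is no result about the members. Other pathway genes that rose numbered 16, against 7 with the array median, 5 with the spike-in RNA, 23 with normexp and 3 with the block, and those that fell 49, against 66 with the array median or the spike-in RNA, 35 with normexp and 3 with the block. HMOX1 was lower in the middle than in the early window and higher in the late than in the middle window under every scaling and with each array of the windows left out, a comparison added after seeing the data. With 3 slides and 1 array per time, changes between 12 and 14 h and between 42 and 48 h cannot be told apart from the slide.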
